A study of Homo sapiens with 9 samples.

Results

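The 10 genes described here encode sensors that bind DNA or RNA in the endosome or the cytoplasm and the adaptors and kinases that carry their signal: DDX58, IFIH1, DHX58, TLR3, MAVS, TMEM173, TICAM1, TBK1, EIF2AK2 and ZBP1. They were chosen by name, because plasmid transfection delivers DNA to the cell, and with earlier results of these data known. All 10 were found among the 58735 genes of the count table. RNA-seq was run on A549, an established line of human lung adenocarcinoma epithelium, in 3 groups of 3 libraries. Cells of the control group received the control plasmid, called PC3 in the sample names, those of the LINC00996 group a plasmid to overexpress the long non-coding RNA LINC00996, and those of the AP001189.3 group a plasmid to overexpress the long non-coding RNA AP001189.3. The plasmids were introduced with the reagent jetPRIME, so the control cells were also given plasmid DNA, and no untransfected cells were among the 9 libraries. The treatment labels of the 3 control libraries number the control plasmid with the replicate. No label says that the libraries came from separate cultures, so the p-values measure only the spread between these libraries, which may be technical.

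Vertebrate cells read foreign nucleic acid with a small set of receptors. RIG-I (DDX58) and MDA5 (IFIH1) bind double-stranded or uncapped RNA in the cytoplasm and signal through MAVS on the mitochondrial surface, and LGP2 (DHX58) is a helicase of the same family that tunes both. TLR3 binds double-stranded RNA in the endosome and signals through TRIF (TICAM1), and cGAS detects cytosolic DNA and signals through STING (TMEM173). The routes meet at the kinase TBK1, which phosphorylates the transcription factor IRF3 and so starts the transcription of interferon genes. PKR (EIF2AK2) and ZBP1 act mainly beside this route, the first by halting translation through eIF2 and the second by starting cell death. Several of these genes are themselves induced by interferon, through the ISRE, the DNA element that a complex with STAT2 and IRF9 binds.

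Both transgenes were found where the labels put them. LINC00996 stood at 287, 278 and 322 CPM (counts scaled to the library total with TMM factors) in its own group and at 0.23 to 0.53 in the other 6 libraries. AP001189.3 stood at 98.2, 126 and 144 CPM in its own group and at 0 to 0.125 elsewhere. Library totals ran from 15272450 to 18125447 counts. A549 markers were present, with the 6 epithelial genes summing to 8365 to 11163 CPM, and CDKN2A, which A549 has lost, had no count in any library. The 6 immune markers summed to 0.471 to 1.81 CPM over the 9 libraries, and the plasmacytoid dendritic markers LILRA4 and CLEC4C had no count. LINC00996 replicate 1 stood apart from its group: its chi-square per gene was 20.1 and 29.7 against the other 2 libraries, where the other pairs of replicates gave 2.21 to 6.7.

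The promoters of 4 of the sensors are shown because the interferon element, or a form close to it, was found in DDX58, IFIH1 and TLR3, which were lower with LINC00996, and in EIF2AK2, which did not pass the test. RefSeq's table (GRCh38.p14) held the promoter of 7 of the 10 genes, with DDX58 listed as RIGI, and not those of DHX58, TMEM173 and ZBP1. Each window ran from 250 bases before to 50 bases after RefSeq's start site, which can differ from the gene's end in the annotation of the count table. The ISRE core, GAAA and GAAA with any 2 bases between them, was searched on both strands and occurred in 3.57% of 35116 promoter windows. Among the 7 genes it was found in IFIH1, TLR3 and EIF2AK2, and a form with 1 base between them, found in 3.12% of all windows and chosen after the sequences were seen, was in DDX58. Capitals mark these matches, and all sequences read 5′ to 3′ on the gene's strand.
DDX58, the 250 bases before the start, chr9:32526197-32526446, minus strand: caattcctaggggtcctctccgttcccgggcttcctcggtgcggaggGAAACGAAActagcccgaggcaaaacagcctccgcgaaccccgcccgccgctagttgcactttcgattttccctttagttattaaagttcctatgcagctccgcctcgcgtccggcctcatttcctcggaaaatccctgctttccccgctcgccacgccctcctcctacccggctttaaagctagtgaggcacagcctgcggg
IFIH1, the 250 bases before the start, chr2:162318685-162318934, minus strand: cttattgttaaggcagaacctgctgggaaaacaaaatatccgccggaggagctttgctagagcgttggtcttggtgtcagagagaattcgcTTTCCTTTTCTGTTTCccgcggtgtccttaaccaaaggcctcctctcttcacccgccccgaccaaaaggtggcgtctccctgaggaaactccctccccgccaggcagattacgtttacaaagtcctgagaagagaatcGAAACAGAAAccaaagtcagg
TLR3, 30 bases around the start, chr4:186069141-186069170, plus strand: tcaagctttacTTTCACTTTCgagagtgcc
EIF2AK2, 30 bases around the start, chr2:37156966-37156995, minus strand: gtccaagggGAAAACGAAActgagaaccag

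In IFIH1, 2 overlapping matches lie on the opposite strand, at -159 to -150 and -153 to -144 from the start, and another on the gene's own strand at -21 to -12. In DDX58 the shortened form lies at -203 to -195. The match of EIF2AK2 lies across the start, at -6 to 4, and so does that of TLR3, at -4 to 6 on the opposite strand. The GAS element TTCNNNGAA was in 7.66% of all windows and among the 7 genes was found in TLR3, at -178 to -170 and at -50 to -42. An NF-kB match, present in 11.3% of all windows, was found in DDX58 and IFIH1, in both at -76 to -67, and in TICAM1 at -120 to -111. None of these letters was in the windows of MAVS and TBK1. A match describes the sequence and does not show that a factor binds there.

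On GRCh38 and in the annotation of the count table, all 10 are protein-coding genes. The 3 RNA helicases lie at chr9:32455705-32526324 (DDX58), chr2:162267079-162318703 (IFIH1) and chr17:42101404-42112733 (DHX58), all on the minus strand. TLR3 lies at chr4:186069152-186088069 on the plus strand and TICAM1 at chr19:4815932-4831704 on the minus strand. MAVS lies at chr20:3846799-3876123 and TBK1 at chr12:64451880-64502108, both on the plus strand. TMEM173 lies at chr5:139475534-139482935, EIF2AK2 at chr2:37099210-37157065 and ZBP1 at chr20:57603846-57620576, all on the minus strand. The gene length given in the count table equals the union of the exons of all annotated transcripts for each of the 10.

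In cells overexpressing LINC00996, 6 of the 10 genes were expressed at a lower level than in the control: the RNA helicases DDX58, IFIH1 and DHX58, the endosomal receptor TLR3, the adaptor TMEM173 and ZBP1. The decrease was 2.16-fold to 3.05-fold, and in bulk RNA fewer expressing cells and less RNA per cell cannot be told apart. The adaptors MAVS and TICAM1 and the kinases TBK1 and EIF2AK2 did not pass the test. None passed it as higher, although MAVS had an unadjusted p under 0.05 and was called by DESeq2, as was TBK1 as lower. Over all 16097 genes tested, 22.3% were called in this comparison and 11.6% were called as lower, with edgeR's quasi-likelihood test and adjusted p-values (Benjamini-Hochberg) under 0.05. The libraries of the 2 groups did not overlap for 8 of the 10 genes, 7 as lower, where 40.4% of all genes tested did not overlap and 20.7% were lower. The median log2 fold change of the 10 genes was -1.11, and that of all genes was 0.01. Of the marker lists for other cell types, the 3 endothelial markers summed to 11.7 to 13.1 CPM in the control and 5.26 to 6.5 with LINC00996, and the 4 fibroblast markers to 20.4 to 22.9 and 12.1 to 15.1 CPM. The 3 plasmacytoid dendritic markers, of which IL3RA was the one with counts, summed to 18.4 to 24.3 CPM in the control and 10.2 to 11.4 with LINC00996. The 8 KEAP1 and NRF2 markers of A549 summed to 10545 to 10705 CPM in the control and 16061 to 16259 with LINC00996. Their part in the result was not tested.

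**Figure D1:**
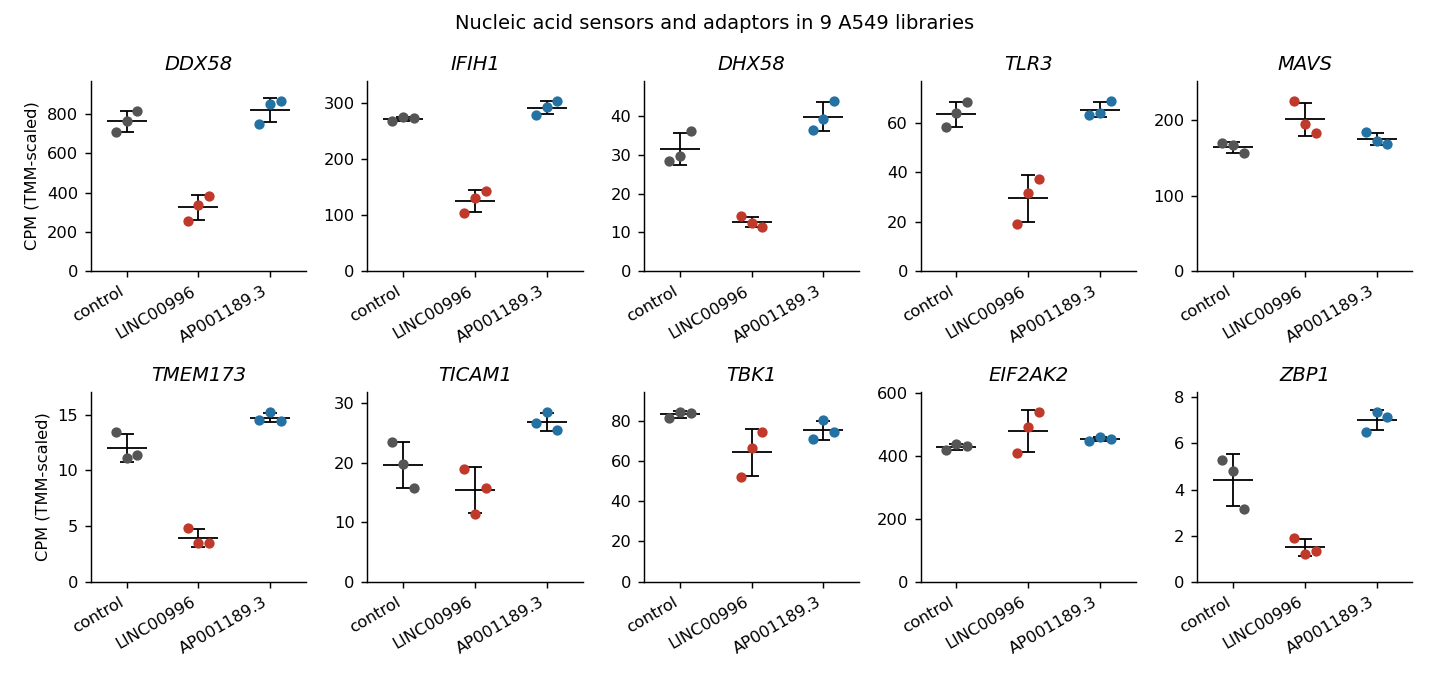
Expression of the 10 genes in each of the 9 libraries, as TMM-scaled CPM on linear axes that start at 0. Points are single libraries, in the order of replicates 1 to 3, and the bar and whiskers are the mean and SD of 3. DDX58, IFIH1, DHX58, TLR3, TMEM173 and ZBP1 sit lower in all 3 LINC00996 libraries than in any other, and EIF2AK2 does not.

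Among the RNA helicases, DDX58 stood at 709.6, 763 and 818 CPM in the control libraries, at 255, 336 and 383 in the LINC00996 libraries and at 752, 851 and 864 in the AP001189.3 libraries. The LINC00996 libraries lay wholly below the others, and the control and AP001189.3 libraries overlapped. The log2 fold change between LINC00996 and control was -1.23 ± 0.13 (SE, adjusted p = 5.96e-05). The antiviral helicase IFIH1 stood at 268, 275 and 273 CPM in the control, at 104, 130.3 and 142 with LINC00996 and at 279, 294 and 303 with AP001189.3. Its 3 groups did not overlap, although the gap between control and AP001189.3 was small. IFIH1 fell by 1.11 ± 0.11 on the log2 scale with LINC00996 (adjusted p = 3.9e-05).

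DHX58, which tunes the other helicases, stood at 28.4, 29.8 and 36.1 CPM in the control, at 14.1, 12.5 and 11.5 with LINC00996 and at 36.5, 39.3 and 43.8 with AP001189.3. No group overlapped another. Against the control it fell by 1.31 ± 0.14 on the log2 scale with LINC00996 (adjusted p = 5.71e-05). The ratio of the 2 helicases that signal through MAVS overlapped between LINC00996 and control. DDX58 counts were 2.65, 2.77 and 3.0 times those of IFIH1 in the control libraries and 2.45, 2.58 and 2.69 times with LINC00996. The log2 difference of this ratio was -0.13, with p = 0.2 in an exact two-sided permutation test. Between LINC00996 and AP001189.3 the ratio did not overlap, with a log2 difference of -0.13. The same permutation test gave p = 0.1 there, the smallest it can give with 3 libraries a group.

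TLR3, the receptor for double-stranded RNA in the endosome, stood at 58.1, 63.8 and 68.3 CPM in the control, at 19.0, 31.7 and 37.3 with LINC00996 and at 62.9, 63.8 and 68.6 with AP001189.3. The LINC00996 libraries lay below all others but varied most, with a coefficient of variation of 31.9%, against 8.04% and 4.66% in the control and AP001189.3 groups. TLR3 fell by 1.11 ± 0.19 on the log2 scale (adjusted p = 0.00165). Its adaptor TICAM1 stood at 23.4, 19.8 and 15.7 CPM in the control and at 19.0, 11.4 and 15.8 with LINC00996. These groups overlapped, and the log2 fold change was -0.35 (95% interval -0.77 to 0.07, adjusted p = 0.221).

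TMEM173, which encodes STING, the adaptor of the cytosolic DNA route, was the adaptor that passed the test. It stood at 13.5, 11.2 and 11.4 CPM in the control libraries, at 4.82, 3.49 and 3.47 with LINC00996 and at 14.6, 15.2 and 14.4 with AP001189.3. The 3 groups did not overlap. TMEM173 fell by 1.61 ± 0.18 on the log2 scale with LINC00996 (adjusted p = 7.99e-05), on 55 to 88 counts per LINC00996 library and 179 to 229 per control library. ZBP1, the receptor for left-handed DNA and RNA, had few counts. It was counted 90, 77 and 55 times in the control libraries, 35, 19 and 25 times with LINC00996 and 110, 113 and 118 times with AP001189.3. These correspond to 5.3, 4.8 and 3.17 CPM, to 1.92, 1.21 and 1.35 CPM, and to 6.51, 7.36 and 7.16 CPM, again with no overlap. ZBP1 fell by 1.55 ± 0.28 on the log2 scale with LINC00996 (adjusted p = 0.00212).

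MAVS, the adaptor of RIG-I and MDA5, did not pass the test. It stood at 170.0, 167 and 156 CPM in the control and at 225, 196 and 183 with LINC00996. The LINC00996 libraries lay above the control libraries, and the log2 fold change was 0.29 (95% interval 0.08 to 0.51, adjusted p = 0.0526). TBK1, the kinase that both adaptor routes share, stood at 81.3, 84.2 and 83.6 CPM in the control and at 51.8, 66.5 and 74.3 with LINC00996. Its LINC00996 libraries lay below the control, and the log2 fold change was -0.37 (95% interval -0.65 to -0.10, adjusted p = 0.0513). TBK1 shares 702 exonic bases, 14.7% of its gene length, with the antisense gene AC135279.3, and EIF2AK2 shares 401 with the pseudogene AC007899.1 on the other strand. Whether reads were counted by strand was not given in the sources used here.

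EIF2AK2, the translation-halting kinase PKR, stood at 419, 438 and 429.8 CPM in the control, at 408, 490.4 and 538 with LINC00996 and at 446, 458 and 452 with AP001189.3. The LINC00996 libraries lay on both sides of the others. The log2 fold change against control was 0.16 (95% interval -0.07 to 0.38, adjusted p = 0.307). Ratios of counts within a library need no scaling between libraries. DDX58 counts were 1.69, 1.74 and 1.90 times those of EIF2AK2 in the control and 0.626, 0.685 and 0.711 times with LINC00996. IFIH1 counts were 0.64, 0.627 and 0.635 times those of EIF2AK2 in the control and 0.256, 0.266 and 0.264 times with LINC00996. The 2 groups were apart in both ratios, by -1.40 and -1.27 on the log2 scale. With 3 libraries a group the exact permutation test cannot go below p = 0.1, which both ratios reached. After adjustment over the 24 comparisons of 8 ratios, p was 0.218.

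**Figure D2:**
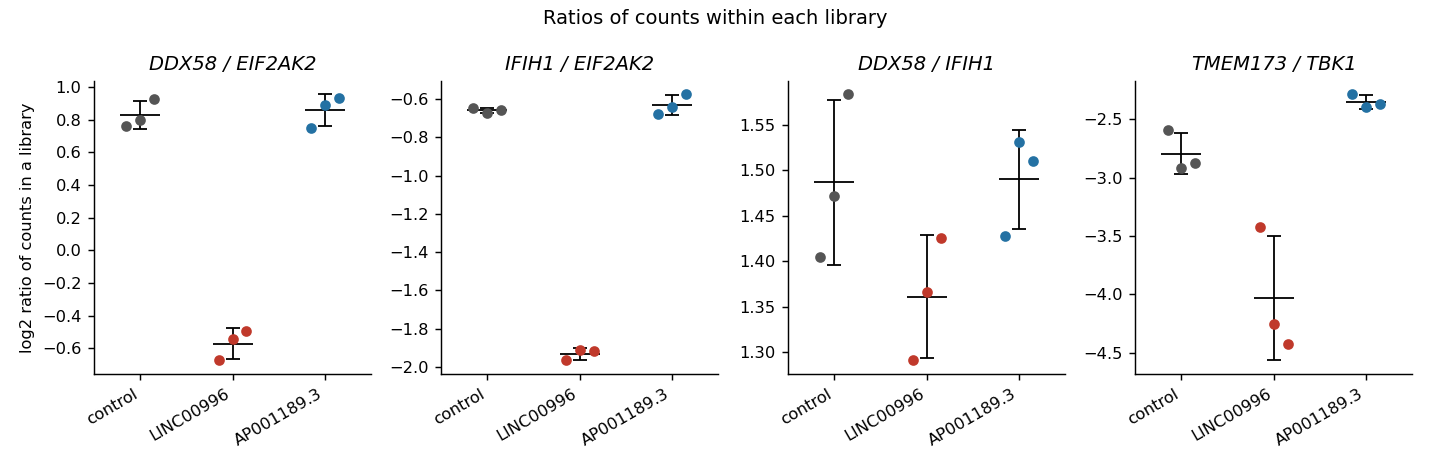
Ratios of counts of 2 genes within each library, on a log2 axis with a separate range for each panel. Points are single libraries, and the bar and whiskers are the mean and SD of 3. DDX58 and IFIH1 relative to EIF2AK2 are lower in the 3 LINC00996 libraries by 1.40 and 1.27, while DDX58 relative to IFIH1 overlaps between LINC00996 and control.

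Per kilobase of gene length, DDX58 was the highest of the 10 genes in all 3 groups, at 175 ± 12.4 CPM per kilobase in the control (SD, n = 3), 74.6 ± 14.8 with LINC00996 and 189 ± 14.2 with AP001189.3. ZBP1 was the lowest in all 3 groups and TMEM173 the next lowest. IFIH1 was second in the control, at 53.2 ± 0.69 CPM per kilobase, followed by EIF2AK2 at 39.9 ± 0.90. With LINC00996 this order was turned, EIF2AK2 at 44.5 ± 6.14 and IFIH1 at 24.6 ± 3.81 CPM per kilobase. The next in the control were TBK1 at 17.4 ± 0.324 and MAVS at 14.0 ± 0.607 CPM per kilobase, then TLR3 at 9.43 ± 0.759, DHX58 at 8.17 ± 1.06 and TICAM1 at 7.35 ± 1.44. Of these neighbours TLR3, DHX58 and TICAM1 lay within their spread. Gene length sums all annotated exons, and per kilobase of 1 principal transcript DHX58 rather than TLR3 came sixth in the control.

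LINC00996 replicate 1 was at the edge of its group for all 10 genes, and the side went with base composition. It was the lowest of the 3 LINC00996 libraries for TBK1, TLR3, EIF2AK2, DDX58 and IFIH1, whose transcripts hold 38.7 to 41.7% GC. It was the highest for MAVS, ZBP1, DHX58, TMEM173 and TICAM1, with 52.0 to 63.2% GC. Over 16552 genes, the deviation of this library from the mean of all 9 went with GC content at a Spearman's rho of 0.43, where the other LINC00996 libraries gave -0.25 and -0.43. Across genes such a value describes the library and genes are not independent replicates.

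**Figure D3:**
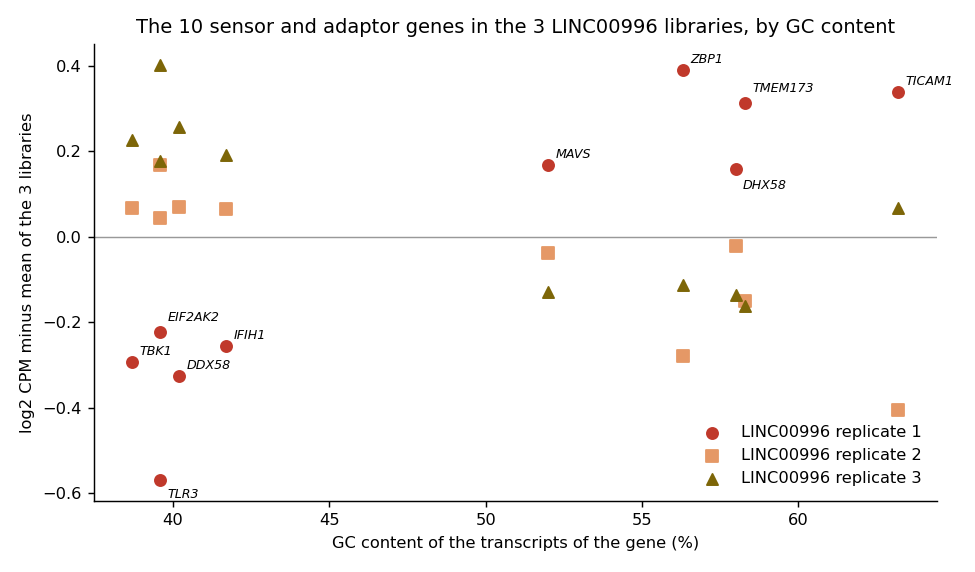
Deviation of each LINC00996 library from the mean of the 3 (log2 CPM, vertical) against the GC content of the gene's transcripts (percent, horizontal), for the 10 genes. Replicate 1, drawn as circles with gene names, lies below 0 for the 5 genes at 38.7 to 41.7% GC and above 0 for the 5 genes at 52.0 to 63.2% GC.

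Without LINC00996 replicate 1 all 10 genes passed the test against the control, 8 as lower and 2 as higher, but the share called over all genes also rose, from 22.3% to 33.2%. The 6 genes called with all libraries kept their direction, with log2 fold changes of -1.09 for DDX58, -0.99 for IFIH1, -1.39 for DHX58, -0.87 for TLR3, -1.79 for TMEM173 and -1.78 for ZBP1. The others were then MAVS at 0.20 (adjusted p = 0.0124), EIF2AK2 at 0.26 (adjusted p = 0.000708), TBK1 at -0.24 (adjusted p = 0.013) and TICAM1 at -0.53 (adjusted p = 0.023). An offset for GC content, chosen after seeing the data, also gave 10 calls, where 38% of all genes were called, with MAVS at 0.29, EIF2AK2 at 0.20, TBK1 at -0.34 and TICAM1 at -0.39 on the log2 scale. Without LINC00996 replicate 3, MAVS at 0.35 (adjusted p = 0.024) and TBK1 at -0.49 (adjusted p = 0.0102) passed as well. Other libraries moved the values the other way: TICAM1 was at -0.17 (adjusted p = 0.579) without LINC00996 replicate 2 and at -0.21 (adjusted p = 0.559) without control replicate 1, and EIF2AK2 at 0.07 (adjusted p = 0.7) without LINC00996 replicate 3. The calls of these 4 genes thus depended on the libraries used, and their size stayed under that of the 6.

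With AP001189.3, 3 of the 10 genes were higher than in the control: ZBP1, the TLR3 adaptor TICAM1 and the helicase DHX58. Over the 16023 genes tested here 19.8% were called, 11.4% as higher. ZBP1 rose by 0.66 ± 0.18 on the log2 scale (SE, adjusted p = 0.00988), DHX58 by 0.34 ± 0.09 (adjusted p = 0.00853) and TICAM1 by 0.45 ± 0.11 (adjusted p = 0.00604). TICAM1 stood at 26.6, 28.5 and 25.4 CPM, above all 3 control libraries. None of the 10 was called as lower by edgeR or DESeq2, where 8.49% of all genes were, and TBK1 alone had an unadjusted p under 0.05 in that direction. The 2 groups did not overlap for 6 genes as higher and 1, TBK1, as lower, where 35.2% of all genes did not overlap, 18.5% as higher and 16.7% as lower. The median log2 fold change of the 10 genes was 0.11, and that of all genes was -0.0013. The 3 endothelial markers summed to 11.7 to 13.1 CPM in the control and 7.29 to 9.58 with AP001189.3. The 8 KEAP1 and NRF2 markers summed to 10545 to 10705 and 11116 to 11702 CPM, and the 6 epithelial markers to 8448 to 8537 and 9114 to 9302 CPM. The part of these markers in the result was not tested.

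These 3 calls were small and depended on the fit. When all 9 libraries shared 1 estimate of the spread, none of the 10 was called, where 2.64% of all genes were, and ZBP1, TICAM1 and DHX58 were those with an unadjusted p under 0.05. DESeq2 on the 6 libraries called 3. It called 7.54% of the 32658 genes it was run on, which include low-count genes that edgeR's filter removed. That share is therefore not on the scale of the 19.8% called by edgeR. DHX58 was not called without control replicate 2 (0.31, adjusted p = 0.0667) or AP001189.3 replicate 3 (0.27, adjusted p = 0.0819), nor ZBP1 without control replicate 3 (0.47, adjusted p = 0.0723) or AP001189.3 replicate 2 (0.63, adjusted p = 0.0514). The 3 AP001189.3 libraries had rho values with GC content of 0.21 to 0.36, the control libraries -0.28 to -0.01. With the GC offset DHX58 at 0.20 (adjusted p = 0.207) and TICAM1 at 0.24 (adjusted p = 0.119) were not called, while DDX58 at 0.21, IFIH1 at 0.19 and EIF2AK2 at 0.18 were.

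The other genes did not pass the test with all 6 libraries. DDX58 had a log2 fold change of 0.11 (95% interval -0.01 to 0.23), IFIH1 of 0.10 (0.0017 to 0.21) and TLR3 of 0.04 (-0.10 to 0.18). TMEM173 had a log2 fold change of 0.29 (95% interval 0.06 to 0.53, adjusted p = 0.0752), with no overlap between the groups, and was called without control replicate 1 (0.38, adjusted p = 0.0291). DDX58 was called without control replicate 3 (0.16, adjusted p = 0.0432) and without AP001189.3 replicate 1 (0.17, adjusted p = 0.0315), but stood at 0.06 (adjusted p = 0.549) without control replicate 1 and 0.07 (adjusted p = 0.555) without AP001189.3 replicate 3. MAVS stood at 185, 173 and 168 CPM and TBK1 at 71.0, 80.4 and 74.5 CPM with AP001189.3. Their log2 fold changes were 0.09 (adjusted p = 0.257) and -0.14 (adjusted p = 0.109), and that of EIF2AK2 was 0.08 (adjusted p = 0.29).

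**Figure D4:**
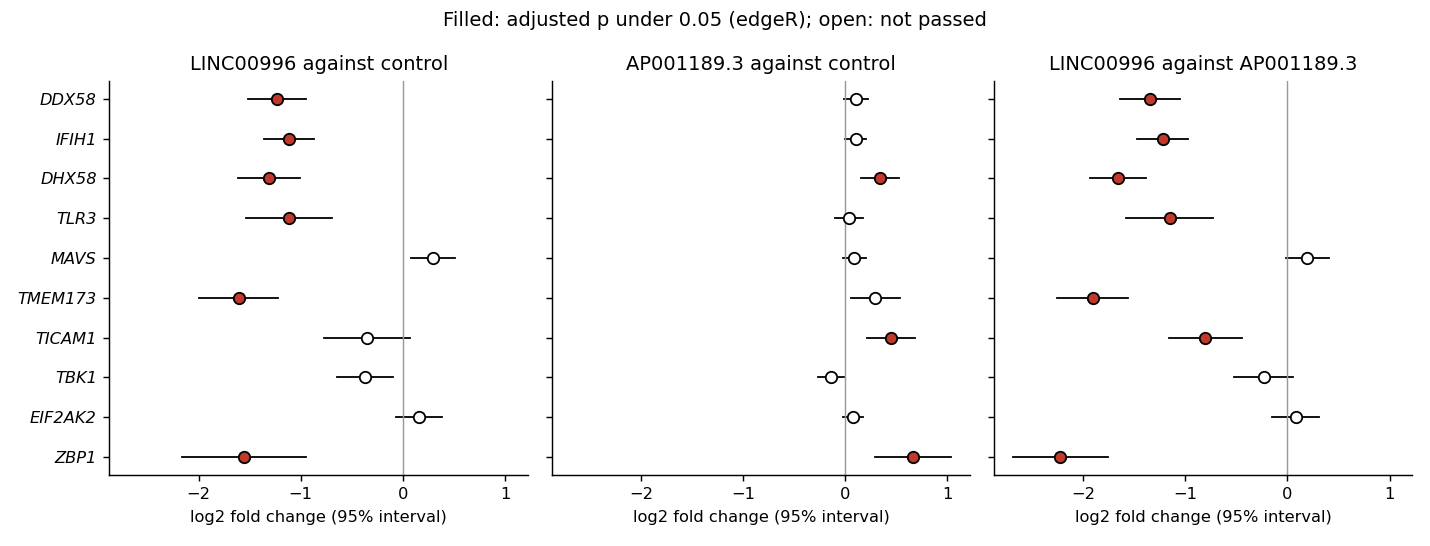
Log2 fold change of the 10 genes in each of the 3 comparisons, with its 95% interval (horizontal line). Filled circles mark an adjusted p under 0.05 in edgeR's quasi-likelihood test and open circles those above it. LINC00996 against control has 6 filled circles, all left of 0, and AP001189.3 against control 3, all right of 0.

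The groups carrying LINC00996 and AP001189.3 were also compared directly, which sets 2 plasmids with different inserts side by side. Of the 10 genes 7 were lower with LINC00996, and 0 were higher by edgeR or DESeq2 on these 6 libraries with no offset, 0 also at an unadjusted p under 0.05. Over the 16095 genes tested, 21.4% were called, 12.1% as lower and 9.38% as higher. The 7 were also the genes whose 2 groups did not overlap, which held for 39.2% of all genes and for 19.7% as lower. The log2 fold changes were -2.22 for ZBP1, -1.91 for TMEM173, -1.66 for DHX58, -1.34 for DDX58, -1.22 for IFIH1, -1.15 for TLR3 and -0.80 for TICAM1, with adjusted p from 4.92e-06 to 0.00468. MAVS at 0.20 (95% interval -0.01 to 0.40), TBK1 at -0.23 (-0.52 to 0.05) and EIF2AK2 at 0.08 (-0.15 to 0.31) did not pass. EIF2AK2 was called, at 0.19 (adjusted p = 0.00378), when LINC00996 replicate 1 was left out, where 41.6% of all genes were called. With the GC offset, where 37.7% of all genes were called, MAVS was called as higher at 0.25 (adjusted p = 0.00241) and TBK1 as lower at -0.31 (adjusted p = 0.000759). MAVS also had an unadjusted p under 0.05 as higher in the fit of all 9 libraries. The 3 endothelial markers summed to 5.26 to 6.5 CPM with LINC00996 and 7.29 to 9.58 with AP001189.3. The fibroblast markers summed to 12.1 to 15.1 and 18.6 to 21.9 CPM. The plasmacytoid dendritic markers summed to 10.2 to 11.4 and 17.5 to 20.9, and the KEAP1 and NRF2 markers to 16061 to 16259 and 11116 to 11702. The epithelial and immune sums overlapped. The part of these markers was not tested.

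Outside the 10 genes, lists of their partners and targets were set beside the share called over all genes. The lists were chosen with earlier results of these data known, so their shares are a description and no independent test. Against the control, the share over all genes was 22.3% with LINC00996 (11.6% as lower) and 19.8% with AP001189.3 (11.4% as higher). With LINC00996 that share was 11.6 to 13.1% without any 1 control library, and 33.2%, 15% and 23% without LINC00996 replicates 1, 2 and 3. With AP001189.3 it was 12 to 21.9% without any 1 control library and 11.6 to 15.4% without any 1 of its own. Of 15 targets that IRF3 can switch on without newly made interferon, 14 passed the low-count filter and all 14 were lower with LINC00996, with a median log2 fold change of -1.55. The chemokine CCL5 stood at 1330.5, 1176 and 1105 CPM in the control and at 127, 107 and 128 with LINC00996, a log2 fold change of -3.32 ± 0.11 (SE, adjusted p = 9.19e-09). CXCL10, a chemokine for T cells, fell by 3.16 ± 0.19 and OASL, a partner of RIG-I, by 1.54 ± 0.09 on the log2 scale. The lambda interferons IFNL1, IFNL2 and IFNL3 fell by 2.09, 1.60 and 1.57, the latter pair being near-identical copies between which reads may be split. With AP001189.3, 11 of the same 14 were higher and CCL5 was lower, with a median of 0.42. CCL5 fell there by 0.24 ± 0.06 on the log2 scale (adjusted p = 0.00585).

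IFNB1, the gene of interferon beta, was at the limit of counting. It stood at 1.06, 0.436 and 1.5 CPM in the control, at 0.384, 0.127 and 0.542 with LINC00996 and at 2.31, 2.74 and 3.70 with AP001189.3. With 2 to 26 counts in the control and LINC00996 libraries it did not pass the filter for that comparison, and those groups overlapped. It passed the filter in the comparisons with AP001189.3 only through that group, in which it is high, so its values are given with no test. The AP001189.3 libraries were the highest 3 of the 9.

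**Figure D5:**
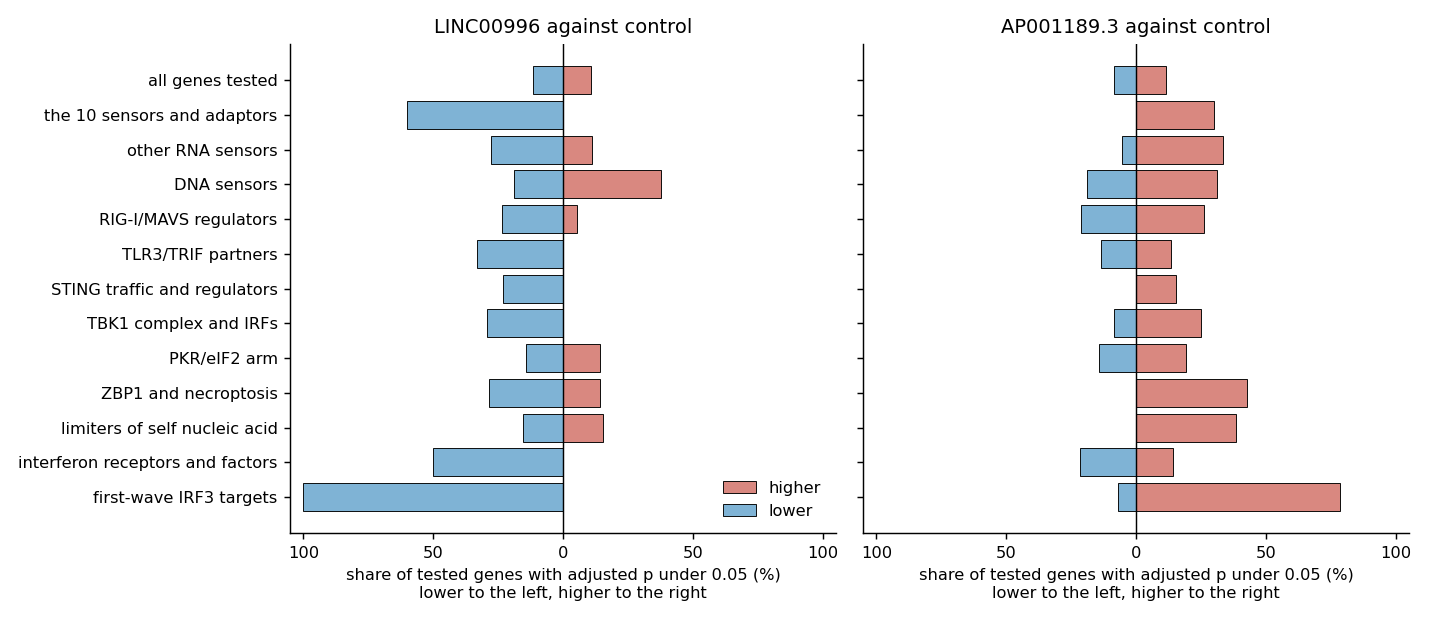
Share of the tested genes of each list with an adjusted p under 0.05 in edgeR, as lower (bars to the left) or higher (bars to the right), in percent of the genes tested. The lists were chosen with earlier results of these data known. They share a few genes with each other, and IFNB1 is left out of the first-wave targets in both panels. For LINC00996 against control the first-wave IRF3 targets are at 100% lower, the 10 sensors and adaptors at 60% lower and all genes tested at 11.6% lower.

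The AP001189.3 counts of these lists were smaller when all 9 libraries shared 1 fit, where 2.64% of all genes were called. Called there were 7 of the 14 IRF3 targets without IFNB1, 2 of the other RNA sensors, 1 of the DNA sensors, 3 of the RIG-I and MAVS regulators and 2 of the TBK1 partners. The DNA sensors moved both ways with LINC00996, 6 of 16 tested genes as higher and 3 as lower, which is 56.2% called and 18.8% as lower. CGAS, the enzyme that activates STING, stood at 20.6, 21.9 and 24.1 CPM in the control and at 14.0, 14.4 and 16.6 with LINC00996, a log2 fold change of -0.57 ± 0.13 (adjusted p = 0.00843). CGAS was not called without control replicate 3 (adjusted p = 0.0504). The chromatin proteins HMGB1 and HMGB2, which also bind stray nucleic acid, rose by 0.80 ± 0.08 and 0.88 ± 0.11, and HNRNPA2B1, an RNA-binding protein of the nucleus, by 0.63 ± 0.08 on the log2 scale. These abundant nuclear proteins have other tasks in chromatin and RNA processing. When any 1 control library was left out, 5 of the DNA sensors were called instead of 9, while the share over all genes fell from 22.3% to between 11.6 and 13.1%. With AP001189.3, 5 were higher and 3 lower, which is 50% called, where 19.8% of all genes were. Leaving out AP001189.3 replicate 2 left 4 calls, and leaving out replicate 3 left 5, where 11.6% and 13.6% of all genes were called.

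Of 18 other RNA sensors, 5 were lower and 2 higher with LINC00996, which is 38.9% called and 27.8% as lower. NOD2, a cytoplasmic receptor known mainly for bacterial cell wall, fell by 1.76 ± 0.22 on the log2 scale, and IFIT1, which binds uncapped RNA, by 0.66 ± 0.09. With AP001189.3, 6 were higher and 1 lower, which is 38.9% called, where 19.8% of all genes were. IFIT1 rose there by 0.38 ± 0.05 (adjusted p = 7.71e-06). Of 38 regulators of RIG-I and MAVS, 9 were lower and 2 higher with LINC00996, which is 28.9% called, where 22.3% of all genes were, and 23.7% as lower, where 11.6% were. TRIM31, a ubiquitin ligase of MAVS, fell by 2.16 ± 0.11, the NOD-like protein NLRC5 by 1.06 ± 0.09 and the RNA-binding protein ZC3HAV1 by 0.71 ± 0.10 on the log2 scale. Without any 1 control library 4 or 5 of the 38 were called, and without LINC00996 replicate 2, 7. With AP001189.3, 10 were higher and 8 lower, which is 47.4% called, where 19.8% of all genes were. These 18 calls came to 9 without control replicate 2, where 12% of all genes were called. They came to 8 and 11 without AP001189.3 replicate 2 and 3, where 11.6% and 13.6% of all genes were called.

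Around TLR3 and TRIF, 5 of 15 genes were lower with LINC00996 (33.3%, where 22.3% of all genes were called and 11.6% were lower). The ubiquitin ligases PELI1 and TRAF6 fell by 0.65 ± 0.12 and 0.70 ± 0.14, and the protease CTSB by 0.43 ± 0.09 on the log2 scale. Leaving out control replicate 2, control replicate 3 or LINC00996 replicate 2 brought this count to 3. Leaving out LINC00996 replicate 1 brought it to 9, where 33.2% of all genes were called. Of 26 genes for the traffic and regulation of STING, 6 were lower with LINC00996, which is 23.1% where 22.3% of all genes were called and 11.6% were lower. The share called is thus close to that over all genes, with each call in 1 direction. Among them were RHBDF2 (the iRhom2 gene) at -1.0 ± 0.10, the exporter ABCC1 at -0.51 ± 0.08 and the coat GTPase SAR1A at -0.49 ± 0.10. Without LINC00996 replicate 1, 11 of the 26 were called, 4 of them as higher, where 33.2% of all genes were called. 

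Of 24 partners of TBK1 and IRF genes, 7 were lower with LINC00996 (29.2%, where 22.3% of all genes were called and 11.6% were lower). IKBKE, the kinase nearest to TBK1, stood at 85.6, 79.5 and 77.4 CPM in the control and at 47.8, 39.0 and 36.6 with LINC00996, and fell by 0.98 ± 0.12 on the log2 scale (adjusted p = 0.000146). OPTN, an adaptor of TBK1, fell by 0.68 ± 0.09 and IRF7, a relative of IRF3, by 0.66 ± 0.13. IRF3, the main substrate of TBK1, had a log2 fold change of 0.18 (adjusted p = 0.378), and its groups overlapped. Leaving out control replicate 2, control replicate 3 or LINC00996 replicate 2 left 4 calls. Leaving out LINC00996 replicate 1 gave 13, where 33.2% of all genes were called. With AP001189.3, 6 were higher and 2 lower, which is 33.3% called, where 19.8% of all genes were. Without replicate 2 or 3 of that group 5 were called in all, where 11.6% and 13.6% of all genes were. IRF3 and IRF7 were higher with AP001189.3 by 0.32 ± 0.06 and 0.33 ± 0.05. Neither passed with the GC offset, at 0.13 (adjusted p = 0.143) and 0.05 (adjusted p = 0.738), or in the fit of all 9 libraries.

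The partners of PKR in the eIF2 route were called 3 times in each direction among 21 genes with LINC00996, which is 28.6% called, where 22.3% of all genes were, and 14.3% as lower, where 11.6% were. PPP1R15B, a subunit of an eIF2 phosphatase, fell by 0.74 ± 0.10, while NPM1 and TARBP2, both of which bind PKR or its RNA ligands, rose by 0.36 ± 0.09 and 0.77 ± 0.19 on the log2 scale. Without any 1 control library 2 of the 21 were called, without LINC00996 replicate 2, 3 were, and NPM1 and TARBP2 were each lost in at least 1 of these. Of 8 genes for necroptosis beside ZBP1, RIPK3 did not pass the low-count filter. Of the 7 tested, 3 were called (42.9%, where 22.3% of all genes were), 2 of them as lower (28.6%, where 11.6% were). MLKL, which ruptures the membrane, fell by 0.84 ± 0.09, the caspase inhibitor CFLAR by 0.62 ± 0.09, and the mitochondrial phosphatase PGAM5 rose by 0.50 ± 0.11. Without LINC00996 replicate 1, 5 of the 7 were called, where 33.2% of all genes were. Of 13 genes that keep the cell's own nucleic acid from the sensors, 2 were higher and 2 lower, which is 30.8% called, where 22.3% of all genes were, and 15.4% as lower, where 11.6% were. SKIV2L, a helicase of the RNA exosome, fell by 0.93 ± 0.11 with LINC00996 and rose by 0.41 ± 0.06 with AP001189.3, the DNA-bridging protein BANF1 rose by 0.75 ± 0.10 with LINC00996, and the RNA editor ADARB1 was lower by 0.49 ± 0.14. Leaving out control replicate 2, control replicate 3 or LINC00996 replicate 2 left 2 of these 4 calls. ADARB1 was not called without any 1 control library, LINC00996 replicate 2 or LINC00996 replicate 3.

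Of 14 receptors and factors of the interferon response, 7 were lower with LINC00996 (50%, where 22.3% of all genes were called and 11.6% were lower). The transcription factor IRF1 fell by 1.00 ± 0.09, and the receptor chains for interferon gamma, IFNGR2 and IFNGR1, by 0.96 ± 0.09 and 0.72 ± 0.10 on the log2 scale. Of the ISRE-binding proteins, STAT2 fell by 0.50 ± 0.08 (adjusted p = 0.00109), and IRF9 had a log2 fold change of 0.23 (adjusted p = 0.428). With AP001189.3, IRF1 rose by 0.56 ± 0.05 and STAT2 by 0.32 ± 0.05, while IFNGR1 and IFNGR2 fell by 0.16 ± 0.05 and 0.17 ± 0.06. For IFNGR2 the AP001189.3 and control libraries overlapped (adjusted p = 0.0421).

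The genes with the most similar profiles were sought among 9856 genes of at least 10 CPM, by Pearson's r of log2 CPM over the 9 libraries, as a description. For DDX58 these were SAMD9L, OAS2 and ZC3HAV1, with r of 0.998, 0.998 and 0.997. For IFIH1 they were SERPINB9, BIRC3 and CD38, with r of 0.998, 0.997 and 0.997. For DHX58 they were PLAUR, THBD and STAT5A, with r of 0.993, 0.990 and 0.990. The 9 points fall into 3 groups and share their libraries.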

How the data were processed

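Poly-A RNA of the 9 A549 libraries was sequenced as paired reads. The authors deposited raw counts per gene and FPKM values, and per the labels HISAT2 2.0.5, featureCounts 1.5.0-p3, DESeq2 1.20.0 and edgeR 3.22.5 were used on GRCh38. Gene coordinates equal GENCODE 29 for 58724 of 58735 genes. The deposited FPKM column equals counts over total and gene length up to a constant per library, so counts alone were tested. Values in CPM were computed here from the counts with TMM factors. For each comparison edgeR 4.0.16 (R 4.3.3; filterByExpr, TMM, robust quasi-likelihood fit) was run on its 6 libraries, with Benjamini-Hochberg adjustment over all genes tested, and a gene was called at an adjusted p under 0.05. SE and 95% intervals come from that fit and cover the spread between libraries. The 10 genes, the lists and the genes named were chosen with earlier results of these data known: at most 3 genes a list, those with the smallest adjusted p for LINC00996 against control, beside the 10 genes, IRF3, IRF7, CGAS, IFNB1, STAT2 and IRF9. A further gene of that rule is not reported here. IFNL1, IFNL2 and IFNL3 were named outside that rule, after their values were seen. DESeq2 1.42.0, other scalings, filters, offsets for gene length and GC content, 1 fit of all 9 libraries, a replicate block and leaving out each library were the alternatives. The scripts were tested on simulated data. Library totals were 15272450 to 18125447 counts.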

Additional observations from a re-analysis of the deposited data

How the results depend on the processing

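The 6 genes called with LINC00996 against control (DDX58, IFIH1, DHX58, TLR3, TMEM173 and ZBP1) kept their direction and call under all 15 alternatives. MAVS was called under 9 of them and TBK1 under 7, TICAM1 and EIF2AK2 under 2 each. Leaving out 1 library moved the number of the 10 genes called between 6 and 10 for LINC00996 against control, 2 and 4 for AP001189.3 against control and 7 and 8 for LINC00996 against AP001189.3. The genes called in all ran from 1925 to 5481, from 1914 to 3598 and from 1840 to 6828 in these refits, against 3588, 3180 and 3452 with all libraries. The GC offset gave 6109 genes and 10 of the 10 for LINC00996 against control, and 6068 genes for LINC00996 against AP001189.3. With all 9 libraries in 1 fit, AP001189.3 against control gave 437 genes and 0 of the 10, of which 3 had an unadjusted p under 0.05. The cause of these shifts was not tested. Among the genes followed through the alternatives a direction turned for 4 with small log2 fold changes, none called in that comparison with all libraries. In the comparisons with AP001189.3 the 10 genes and only part of the other named genes were followed. With 1 library left out, TLR3 with AP001189.3 against control ran from -0.023 (without control replicate 1) to 0.0941, being -0.0017 without AP001189.3 replicate 3. EIF2AK2 for LINC00996 against AP001189.3 ran from -0.0167 (without LINC00996 replicate 3) to 0.1873, and IRF3 for LINC00996 against control from -0.0044 (without LINC00996 replicate 1) to 0.2926. IRF9 for LINC00996 against AP001189.3 ran from -0.2259 to 0.0656 (without LINC00996 replicate 2). With the GC offset IRF9 was at 0.0049 and IRF3 at 2e-04 in that comparison. Of 495 list counts recomputed, 112 moved by more than 1.5 times. Whether the replicate numbers pair the samples was not settled: same-numbered deviations correlated at 0.15, 0.02 and 0.09 for LINC00996 and control. The values were 0.06, -0.02 and 0.03 for AP001189.3 and control. In each of the 3 comparisons replicates 1 and 3 went best with the same number, but replicate 2 did not. LINC00996 replicate 2 went better with control replicate 3 (0.04). With the replicate block, 4500, 3466 and 3772 genes and 8, 3 and 7 of the 10 were called in the 3 comparisons. No scaling moved the median of all genes by 0.1 or more on the log2 scale. Depth limits ZBP1, with 19 to 118 counts a library, and IFNB1, with 2 to 61.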
